A study of Mus musculus with 4 samples.

Results

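Histone marks were described at 34 mouse genes that act in germ cells and meiosis, in a somatic cell, the peritoneal macrophage. The genes were listed by name, and every peak that overlapped the RefSeq span of such a gene on mm10, or lay within 1000 bp of it, was taken as a peak of that gene. The 34 genes were taken from 49943 RefSeq genes, of which 21887 are protein-coding and serve as the background. They held 25 H3K4me3 peaks in Sun knockout and 23 in wild-type macrophages, and 29 H3K9me3 peaks in Sun knockout and 21 in wild-type macrophages. Chromatin immunoprecipitation with sequencing (ChIP-seq) had been carried out with antibodies against trimethylated lysine 4 and lysine 9 of histone H3. The knockout cells came from mice labelled Sun-/- and the others from wild-type mice, all C57BL/6 and 8 weeks old. In both genotypes thioglycollate broth was used to elicit the macrophages, which were then kept in culture dishes. The gene behind the name Sun is not given in the labels, nor how the allele was made, or how many mice went into a library, and there was 1 library per mark and genotype, so no test between genotypes was possible.

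Germline genes encode the proteins that pair and recombine chromosomes in meiosis, such as the synaptonemal complex, the meiotic cohesins and the recombinases. Others encode the RNA helicases, Tudor proteins and PIWI proteins of germ granules, which make and use small RNAs against transposons. In somatic cells most of them are silent. As background from other work, their promoters are often rich in CpG, and their silencing has been tied to DNA methylation, to methylation of H3 lysine 9, and to a Polycomb complex that holds MGA and MAX, which read the E-box CACGTG, and E2F6 with a TFDP partner, which read E2F sites. H3K4me3 marks starts of active or poised genes, while H3K9me3 is a mark of silent chromatin.

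After duplicate removal the H3K4me3 libraries held 26748289 tags in the knockout and 29681491 in the wild type, and the H3K9me3 libraries 28586946 and 27727997 tags. In peaks lay 14.0% and 17.8% of the H3K4me3 tags of knockout and wild type, but 1.62% and 1.69% of the H3K9me3 tags. The median H3K9me3 peak held 17 tags in the knockout and 16 in the wild type, so most H3K9me3 calls rest on few tags. The fragment length estimated by the peak caller was 71 and 66 bp for H3K9me3, near the tags' own 50 bp, and its part in the calls was not tested. For marker genes, peaks in the gene or within 1000 bp of it were counted. By that count 68.7% of all protein-coding genes had H3K4me3 in the knockout and 70.2% in the wild type. H3K4me3 peaks were present at 9 of 9 macrophage markers in both genotypes. They were present at 2 of 5 T cell markers (Cd3d and Cd4) in both genotypes, with Cd3e, Cd3g and Cd8a bare, and at 1 of 3 B cell markers (Cd79a). Of 4 neutrophil markers 1 was marked in the knockout (S100a8) and 1 in the wild type (Mpo), and of 4 mesothelial markers 1 (Wt1) and 3 (Krt19, Upk3b, Wt1). Late male germ cell genes outside the 34 were marked at 2 of 6 (Gapdhs and Zpbp) in both genotypes, with none at the protamine genes Prm1 and Prm2, Tnp1 or Acrv1. The peaks counted at Cd3d, Cd79a, Mpo and Gapdhs were not within 1000 bp of a listed start, and Cd4, Krt19 and Wt1 have no listed start. At listed starts H3K4me3 was at 5 of 5 macrophage markers and 0 of 4 T cell markers in both genotypes. It was there at 0 of 1 B cell markers and 1 of 6 late male germ cell genes in both genotypes. The latter was Zpbp, with 94 tags in the knockout and 161 in the wild type. In the knockout alone it was at 1 of 4 neutrophil markers, S100a8, with 21 tags. In the wild type alone it was at 1 of 1 mesothelial markers, Upk3b, with 101 tags. A tag count from many cells does not tell fewer marked cells from fewer marks per cell.

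Promoter sequences are shown for some of the marked starts. The RefSeq promoter table of GRCm38.p6, the assembly of mm10, lists a start for 28 of the 34 genes, with 250 bases before it and 50 after it, and Tex11, Tex15, Tdrd6, Piwil2, Spo11 and Dppa3 are without one. Shown are 5 starts that carried H3K9me3 in both genotypes and Syce2, the gene with the most H3K4me3 tags and no H3K9me3, at its listed start nearest the H3K4me3 summits. Each is printed 5′ to 3′ on the strand of its gene, with capitals for CACGTG and for TCCCGC or its reverse complement GCGGGA, both searched on either strand. The starts shown are examples. Of the 10 members with H3K9me3 at a start in both genotypes, 5 held both motifs in the lowest-coordinate window. Sycp2, which is not shown, held neither motif and 10 CpG.
Ddx4, chr13:112652261-112652560, minus strand: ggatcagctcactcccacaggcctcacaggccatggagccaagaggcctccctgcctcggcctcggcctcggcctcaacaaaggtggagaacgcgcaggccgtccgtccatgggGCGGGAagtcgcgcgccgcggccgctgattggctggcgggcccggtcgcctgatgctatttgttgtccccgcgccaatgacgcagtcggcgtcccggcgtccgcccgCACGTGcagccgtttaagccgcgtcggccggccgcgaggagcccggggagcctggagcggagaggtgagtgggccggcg
Tex12, chr9:50561219-50561518, minus strand: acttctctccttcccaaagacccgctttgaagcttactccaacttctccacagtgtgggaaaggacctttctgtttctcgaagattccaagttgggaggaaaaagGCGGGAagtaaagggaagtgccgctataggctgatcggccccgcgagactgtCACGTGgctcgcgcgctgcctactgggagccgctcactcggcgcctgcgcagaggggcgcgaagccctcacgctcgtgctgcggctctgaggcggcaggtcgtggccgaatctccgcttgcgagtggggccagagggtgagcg
Sycp1, chr3:102936051-102936350, minus strand: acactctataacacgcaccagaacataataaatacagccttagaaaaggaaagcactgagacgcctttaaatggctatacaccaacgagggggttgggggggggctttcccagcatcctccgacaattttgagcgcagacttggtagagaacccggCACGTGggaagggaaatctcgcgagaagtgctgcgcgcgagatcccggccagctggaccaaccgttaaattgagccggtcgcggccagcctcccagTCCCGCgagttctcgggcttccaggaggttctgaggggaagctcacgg
Mael, chr1:166238695-166238994, minus strand: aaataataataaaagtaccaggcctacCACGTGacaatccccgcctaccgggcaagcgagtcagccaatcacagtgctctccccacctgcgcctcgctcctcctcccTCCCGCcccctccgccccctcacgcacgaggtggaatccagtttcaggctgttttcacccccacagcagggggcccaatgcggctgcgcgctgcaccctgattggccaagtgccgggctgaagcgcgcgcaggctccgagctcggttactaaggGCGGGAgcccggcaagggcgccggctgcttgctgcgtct
Dazl, chr17:50293571-50293870, minus strand: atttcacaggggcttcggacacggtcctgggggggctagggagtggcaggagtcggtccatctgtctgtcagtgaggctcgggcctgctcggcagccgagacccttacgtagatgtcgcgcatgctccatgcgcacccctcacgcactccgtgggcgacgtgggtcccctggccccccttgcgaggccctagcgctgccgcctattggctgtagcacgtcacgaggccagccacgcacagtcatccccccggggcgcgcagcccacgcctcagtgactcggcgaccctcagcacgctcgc
Syce2, chr8:84872008-84872307, plus strand: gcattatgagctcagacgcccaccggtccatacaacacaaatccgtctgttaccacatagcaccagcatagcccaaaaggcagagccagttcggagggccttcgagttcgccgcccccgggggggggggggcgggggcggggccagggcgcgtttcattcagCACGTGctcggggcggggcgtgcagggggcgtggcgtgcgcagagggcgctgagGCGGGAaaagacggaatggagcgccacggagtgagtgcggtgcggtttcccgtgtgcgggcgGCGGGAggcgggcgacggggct

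Counted from the start, the E-box CACGTG began at base -29 in Ddx4, -93 in Tex12, -94 in Sycp1, -223 in Mael and -88 in Syce2, so it was not particular to starts with H3K9me3. The Dazl window held neither motif but 28 CpG, against a median of 13 over all promoters. A gene was counted when any of its listed windows held the motif, and 6 of the 28 members have several windows. Of the 28 members, 16 (57.1%) held CACGTG, against 8.91% of 17492 protein-coding genes with windows of the same length. TCCCGC was in 14 (50%), against 28.4%, and both motifs stood in 1 window in 9 (32.1%), against 3.1%, with no overlap between them in any member. The members were then divided by H3K9me3 at a listed start in either genotype. Of 13 members with the mark, 8 (61.5%) held CACGTG, 10 (76.9%) TCCCGC and 7 (53.8%) both, namely Ddx4, Sycp1, Tex12, Mael, Hormad1, Stag3 and Slc25a31. Of 15 members without the mark, 8 (53.3%) held CACGTG, 4 (26.7%) TCCCGC and 2 (13.3%) both, namely Syce2 and Sycp3. The counts with and without the mark were nearest for CACGTG and further apart for TCCCGC and for both motifs, and these differences were not tested. With the lowest-coordinate window of each gene alone, the counts with the mark were again 8, 10 and 7, and those without it 6, 4 and 1. In that window the median number of CpG was 24 in the members with H3K9me3 and 17 in those without. Of 1231 protein-coding genes with H3K9me3 at a start in both genotypes, 12.5% held CACGTG, 50.4% TCCCGC and 6.17% both in 1 window. Their median number of CpG in the lowest-coordinate window was 28, and that of the 10 members with H3K9me3 in both genotypes was 25. A high CpG number was thus not particular to the marked members. A match of letters is not a bound site, and no factor was mapped here.

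**Figure D1:**
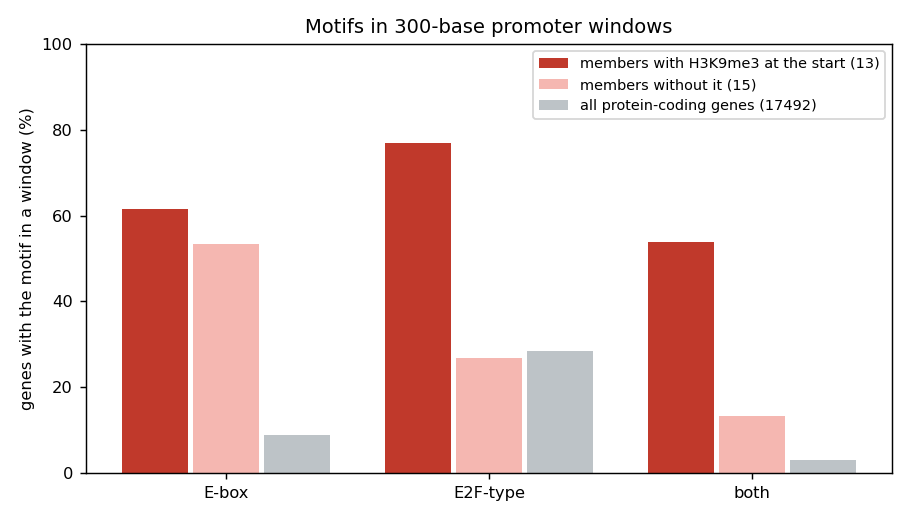
Share of genes (y axis, percent) with a 300-base promoter window that holds CACGTG (E-box), TCCCGC on either strand (E2F-type) or both, for members with H3K9me3 at the start in either genotype, members without it and all protein-coding genes. The E-box was in 61.5% of the members with the mark and 53.3% of those without it, and both motifs together in 53.8%, 13.3% and, of all genes, 3.1%.

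At their starts the germline genes carried H3K9me3 at a share above the background and H3K4me3 at a share below it, in both genotypes. A peak was counted at a start when it lay within 1000 bp of it. H3K9me3 was at 12 of 28 starts (42.9%, exact 95% interval 24.5 to 62.8) in the knockout, where 14.6% of all protein-coding starts had it. It was at 11 of 28 (39.3%, 21.5 to 59.4) in the wild type, against a background of 11.6%. In both genotypes H3K9me3 was at 10 starts (35.7%, 18.6 to 55.9), those of Dazl, Ddx4, Dmc1, Mael, Meioc, Stag3, Sycp1, Sycp2, Tdrd1 and Tex12, against 7.04% of all starts. H3K4me3 was at 13 starts (46.4%, 27.5 to 66.1) in the knockout, with a background of 63.2%, and at 11 (39.3%, 21.5 to 59.4) in the wild type, with a background of 64.7%. With a stricter score of at least 100, H3K9me3 was at 5 starts in the knockout, against 4.33%, and at 8 in the wild type, against 3.09%, while H3K4me3 was at 9 in the knockout, against 58.8%, and at 6 in the wild type, against 61.6%. The intervals cover counting error only, and since the genes were proposed with earlier results of these data known, the shares are a description.

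**Figure D2:**
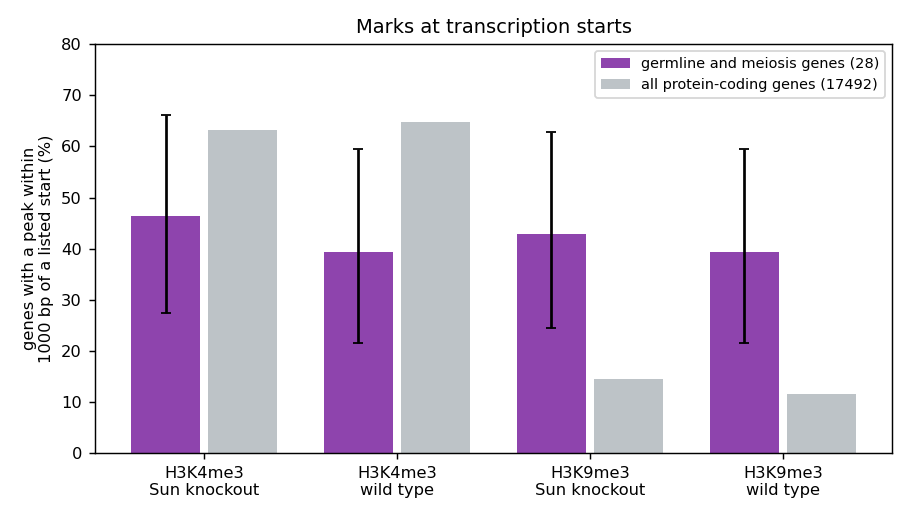
Share of genes (y axis, percent) with a peak within 1000 bp of a listed start, for 28 germline and meiosis genes (bars with exact 95% intervals) and for 17492 protein-coding genes. For H3K9me3 the members stand at 42.9% in the knockout and 39.3% in the wild type, against 14.6% and 11.6% of all genes, and for H3K4me3 at 46.4% and 39.3%, against 63.2% and 64.7%.

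Counted by gene ends, which needs no listed start, H3K9me3 lay within 1000 bp of an end of 13 of 34 members (38.2%) in the knockout, with a background of 14.8%, and of 11 (32.4%) in the wild type, with a background of 11.7%. In both genotypes it did so at 10 (29.4%), with a background of 6.78%. H3K4me3 lay at an end of 16 members in the knockout (background 61.5%) and 13 in the wild type (63.3%). Anywhere in the gene or its flanks, H3K9me3 was found at 18 members (52.9%) in the knockout, against 28.1% of all genes, and at 17 (50%) in the wild type, against 25.6%. For H3K4me3 that count was 20 of 34 (58.8%) in both genotypes, against 68.7% in the knockout and 70.2% in the wild type. Both marks were found there at 10 members in the knockout, against 25.9%, and at 12 in the wild type, against 23.2%. With a score of at least 100, H3K4me3 was at 13 members in the knockout, against 62.9% of all genes, and at 11 in the wild type, against 65.8%. H3K9me3 was then at 6 in the knockout, against 7.87%, and at 9 in the wild type, against 6.63%, and both marks were at 4 in the knockout, against 7.23%, and at 3 in the wild type, against 5.95%.

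Dazl, Tex12 and Ddx4 held the most H3K9me3 tags in a peak of the 34 genes in both libraries, and H3K4me3 peaks overlapped the H3K9me3 peaks there in both genotypes. Dazl encodes an RNA-binding protein that controls translation in germ cells. Its H3K9me3 peak, chr17:50292704-50293880 in the knockout, held 121 tags in the knockout (exact Poisson 95% interval 100 to 145) and 127 in the wild type (106 to 151). Its H3K4me3 peak held 144 tags in the knockout and 155 in the wild type. Both H3K9me3 counts lie within each other's interval, and so do the H3K4me3 counts. By H3K9me3 tags the Dazl start ranked 19 of 2562 marked starts in the knockout and 14 of 2024 in the wild type. Ddx4 encodes the helicase Vasa of the germ granule. Its H3K9me3 peak, chr13:112651859-112652621 in the knockout, held 86 tags in the knockout (68.8 to 106) and 40 in the wild type (28.6 to 54.5), over widths of 763 and 517 bp. Its H3K4me3 peak held 53 tags in the knockout (39.7 to 69.3) and 39 in the wild type (27.7 to 53.3). Both marks thus had more tags in the knockout library at Ddx4, where the H3K9me3 intervals do not overlap and the H3K4me3 intervals do. Tex12 encodes a central element protein of the synaptonemal complex. Its H3K9me3 peak, chr9:50560886-50561732 in the knockout, held 96 tags in the knockout (77.8 to 117) and 48 in the wild type (35.4 to 63.6). Its H3K4me3 peak held 87 tags in the knockout (69.7 to 107) over 956 bp and 32 in the wild type (21.9 to 45.2) over 549 bp. At Tex12 the knockout library was the higher for both marks, with intervals that do not overlap. How often such intervals do not overlap over all peaks was not counted. The peaks at Tex12 also lie in the annotated span of Il18, a cytokine gene, with no other listed start within 1000 bp.

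Overlapping peaks of both marks were also called at the starts of Dmc1, Meioc and Stag3 in both genotypes. Dmc1, the meiotic recombinase, held 93 H3K4me3 tags in the knockout and 73 in the wild type, with H3K9me3 peaks of 17 and 24 tags in the knockout and of 22 tags in the wild type. Meioc, needed to hold cells in meiotic prophase, held 71 H3K4me3 tags in the knockout and 60 in the wild type, with H3K9me3 peaks of 24 and 40 tags in the knockout and of 39 in the wild type. Stag3, a meiotic cohesin subunit, held 94 H3K4me3 tags in the knockout and 118 in the wild type, with 21 and 35 H3K9me3 tags. The start of Gpc2 lies within 1000 bp of the Stag3 peaks, and the H3K4me3 summits lay at -623 bp from the Stag3 start in the knockout and at -609 bp in the wild type, so that peak cannot be told apart from the mark of Gpc2. Overlapping peaks of both marks at a start were present at 6 members (21.4%) in the knockout, against 13.9% of all starts, at 7 (25.0%) in the wild type, against 10.8%, and at 6 (21.4%, 8.3 to 41.0) in both genotypes, against 6.68%. The seventh in the wild type was Smc1b, another meiotic cohesin subunit, with 35 H3K4me3 tags in the knockout and 40 in the wild type, no H3K9me3 peak in the knockout and 16 H3K9me3 tags in the wild type. The start of Ribc2 also lies within 1000 bp of the Smc1b peaks. Tex15, which acts in meiotic recombination and in small RNA directed silencing, has no listed start. At its low-coordinate gene end it held 112 H3K4me3 tags in the knockout and 158 in the wild type, with H3K9me3 peaks of 25 tags in the knockout and 14 in the wild type inside them.

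**Figure D3:**
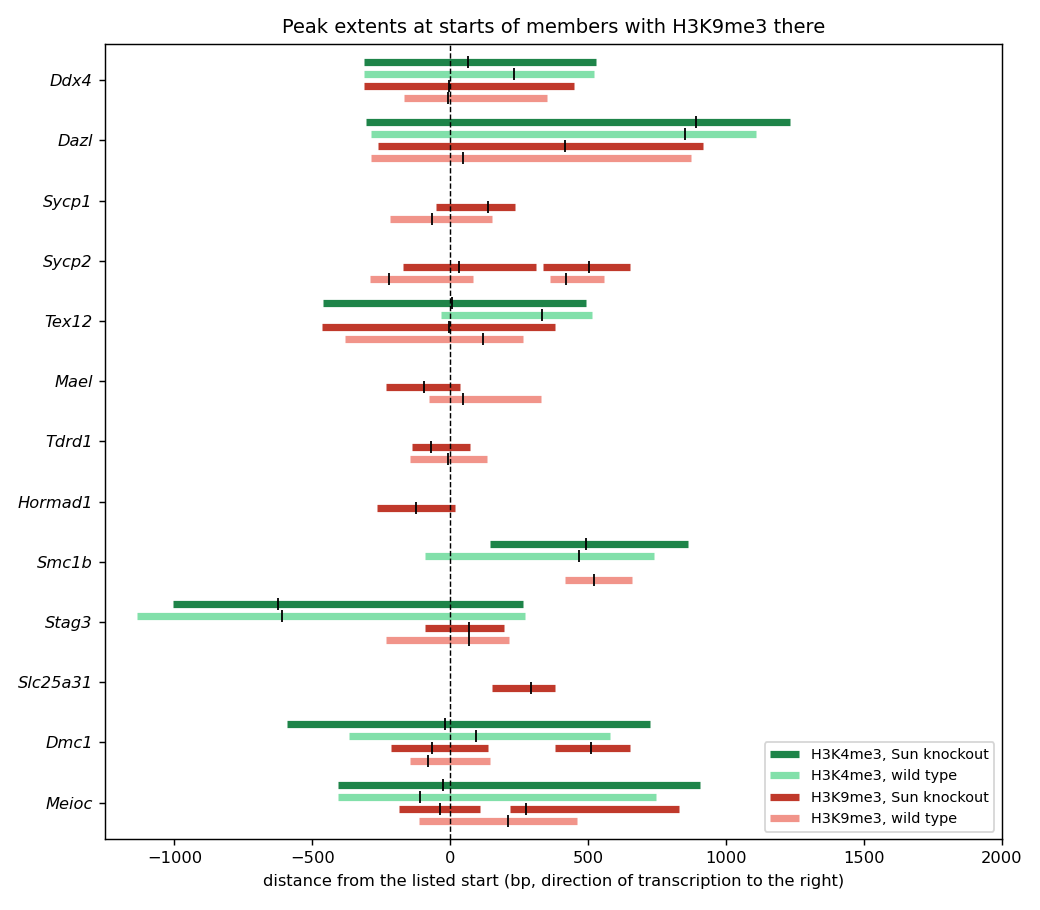
Extent of each peak (bars) and its summit (ticks) by distance from the listed start (x axis, bp) at 13 members with H3K9me3 there, for H3K4me3 and H3K9me3 in knockout and wild type. H3K9me3 lies over or beside the start, with summits from -122 to 511 bp in the knockout and from -223 to 521 bp in the wild type, and H3K4me3 is missing in both genotypes at Sycp1, Sycp2, Mael, Tdrd1, Hormad1 and Slc25a31.

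Of the H3K9me3 peaks within 1000 bp of a member start, most covered the start itself. In the knockout 11 of 15 did, with a median summit 32 bp after it, and in the wild type 10 of 12 did, with a median summit 46.5 bp after it. H3K4me3 peaks at member starts covered the start at 11 of 13 in the knockout and 10 of 12 in the wild type. These shares were not counted over all protein-coding starts. The H3K9me3 peaks at member starts were narrow, with median widths of 296 bp in the knockout and 391.5 bp in the wild type. The authors' fold enrichment of these peaks over the local background ran from 7.2 to 15.06 in the knockout and from 7.12 to 12.55 in the wild type.

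A second set of starts carried H3K9me3 without any H3K4me3 peak at the start. Sycp2, an axial element protein, held H3K9me3 peaks of 38 and 20 tags in the knockout and of 26 and 13 tags in the wild type. Sycp1, the transverse filament protein of the synaptonemal complex, held 19 tags in the knockout (11.4 to 29.7) and 27 in the wild type (17.8 to 39.3). Mael, a protein of transposon silencing by small RNAs, held 17 tags in the knockout (9.9 to 27.2) and 30 in the wild type (20.2 to 42.8). Each of these 3 starts was marked in both libraries, with counting intervals that overlap between genotypes. Tdrd1, a Tudor protein that binds PIWI proteins, held 14 tags at its start in the knockout and 15 in the wild type, and a peak inside the gene held 37 tags in the knockout and 36 in the wild type. H3K9me3 marked 2 starts in the knockout alone, against 7.61% of all starts. The 2 were Hormad1, a protein of the meiotic chromosome axis, with 17 tags, and Slc25a31, the ADP/ATP carrier of germ cells, with 16 tags. In that list the median count was 17 tags and the lowest 12. Smc1b with its 16 tags was marked in the wild type alone, against 4.53% of all starts. Tex11, an X-linked gene of meiotic recombination, held a peak of 14 tags in the knockout and 21 in the wild type inside the gene, and no H3K4me3 peak.

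H3K4me3 in either genotype without H3K9me3 in the gene or its flanks was found at 7 of 34 members. That share was not counted over all genes. Of all protein-coding genes 68.7% had H3K4me3 in the knockout and 25.9% had both marks, and 70.2% and 23.2% in the wild type. The strongest of the 7 members was Syce2, a central element protein, with 207 tags in the knockout (180 to 237) and 277 in the wild type (245 to 312), at chr8:84871611-84873172 in the knockout. Rec8, the meiotic kleisin, held 29 tags in the knockout and 32 in the wild type. Dnmt3l, a cofactor of de novo DNA methylation, held 61 tags in the knockout and 47 in the wild type at an inner start. Piwil4, a nuclear PIWI protein, held 48 tags in the knockout and 63 in the wild type at an inner listed start, within the span of Gm10706. Within 1000 bp of its outer listed start a peak of 20 tags was called in the wild type alone. Spo11, which makes the DNA breaks of meiosis, held 46 tags in the knockout and 65 in the wild type at a gene end that overlaps Gm52538. Dppa3, known for protecting methylation in the egg and early embryo, held 43 tags in the knockout and 44 in the wild type. Each of these 6 was marked in both libraries. Piwil2 had an inner peak of 25 tags in the knockout and none in the wild type. At starts, H3K4me3 was present in both genotypes at 11 members, against 62.2% of all starts, in the knockout alone at Hormad2 (34 tags) and Sycp3 (20 tags), against 0.978%, and in the wild type alone at 0, against 2.52%. The lowest count in the knockout H3K4me3 list was 17 tags.

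**Figure D4:**
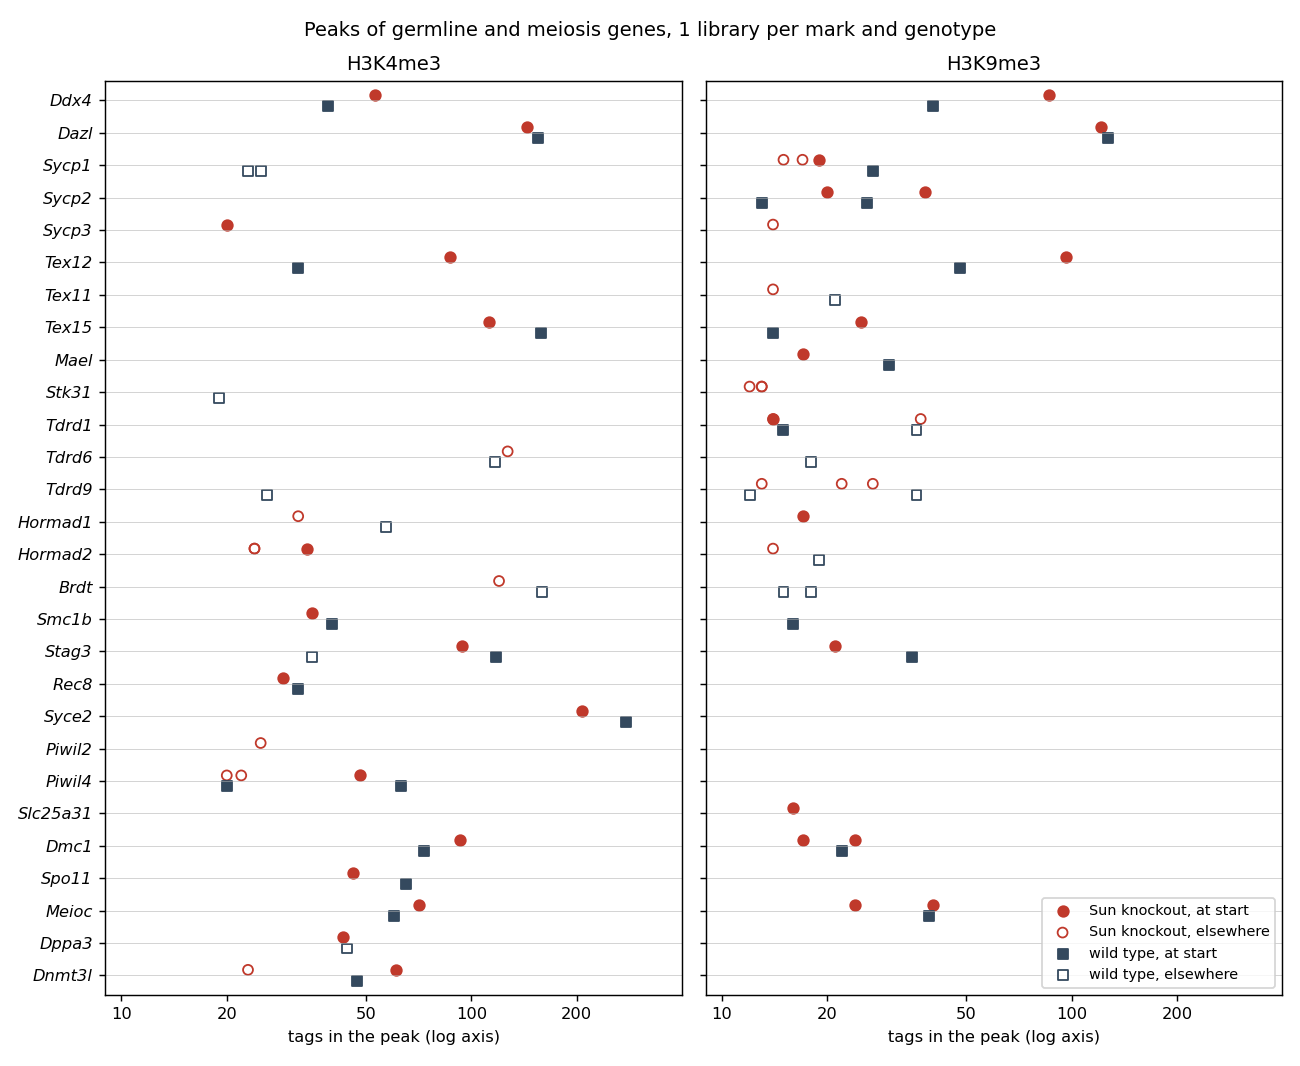
Tags per peak (x axis, log scale) for each of 28 members with a peak, H3K4me3 left and H3K9me3 right, with knockout as circles and wild type as squares. Filled points are peaks at a listed start, or at a gene end for genes with no listed start, and open points are peaks elsewhere. In the knockout the H3K9me3 points of Dazl, Tex12 and Ddx4 lie to the right of those of all other members, and Syce2 has the most H3K4me3 tags.

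Peaks away from the starts were mostly few in tags and found in 1 library. Of H3K9me3 peaks away from member starts, 2 of 12 in the knockout overlapped a wild-type peak and 2 of 6 in the wild type a knockout peak. At member starts 12 of 15 (80%) did in the knockout and 11 of 12 (91.7%) in the wild type. For all H3K9me3 peaks at protein-coding starts these shares were 43.4% and 56.0%, and for all H3K9me3 peaks 35.8% and 32.5%. The inner peaks with over 100 H3K4me3 tags were at Brdt and Tdrd6. Brdt, the bromodomain protein of the testis, held 120 in the knockout and 159 in the wild type. Tdrd6, a Tudor protein of the germ granule, held 127 in the knockout and 117 in the wild type. Tdrd6 has no listed start, so its peak cannot be placed at or away from a start. In the knockout that peak ended at base 43630725, and the gene span ends at 43631846. In the wild type Tdrd6 also had 18 H3K9me3 tags in a peak under that H3K4me3 peak, and Brdt had inner H3K9me3 peaks with 18 and 15 tags. Tdrd9, a helicase of the piRNA pathway, had an inner H3K9me3 peak of 27 tags in the knockout and 36 in the wild type, within 1000 bp of the start of Gm46381. Its other peaks, 22 and 13 H3K9me3 tags in the knockout, 12 H3K9me3 and 26 H3K4me3 tags in the wild type, were in 1 library each. Stk31, a Tudor protein with a kinase-like domain, had H3K9me3 peaks of 12, 13 and 13 tags in the knockout and an H3K4me3 peak of 19 tags in the wild type. Inside Sycp1, H3K9me3 peaks of 15 and 17 tags in the knockout overlapped the place of an H3K4me3 peak of 25 tags in the wild type, which had another of 23 tags. Hormad2, a partner of Hormad1 on the meiotic axis, had inner H3K4me3 peaks of 24 and 24 tags in the knockout, and H3K9me3 peaks of 14 tags in the knockout and 19 in the wild type at the same 2 places. Further peaks of 14 to 35 tags, each in 1 library, were called at Sycp3, Tdrd1, Piwil4, Dnmt3l and Stag3. At the far end of Hormad1 an H3K4me3 peak of 32 tags in the knockout and 57 in the wild type lay at the starts of Golph3l and Gm40097, so it cannot be assigned to Hormad1. No peak of either mark was called at Tex101, Syce1, Piwil1, Asz1, Mov10l1 or Rpl10l. Rpl10l is a near copy of Rpl10, and the treatment of tags that match both genes is not given in the sources used here, so its lack of peaks is uncertain.

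Over all genes, H3K9me3 at starts went with strong H3K4me3, while many of the marked germline starts had little or none. In all, 2562 protein-coding starts had H3K9me3 in the knockout, and 4.02% of them had no H3K4me3 peak at the start. In the wild type there were 2024 such starts and 5.04% without H3K4me3. Of the members with H3K9me3 at the start, 6 of 12 (50%) were without H3K4me3 in the knockout and 4 of 11 (36.4%) in the wild type. Where both marks were present, the median over all genes was 287 H3K4me3 and 22 H3K9me3 tags in the knockout, and 416 and 19.5 in the wild type. For the members it was 90 H3K4me3 and 63 H3K9me3 tags in the knockout, and 60 and 39 in the wild type. The H3K9me3 tags reached or passed the H3K4me3 tags at 8 of 12 members (66.7%) in the knockout and at 6 of 11 (54.5%) in the wild type, against 4.96% and 5.63% of all such starts. Ddx4, Mael, Sycp1, Sycp2, Tdrd1 and Tex12 did so in both genotypes. A start without an H3K4me3 peak counted as 0 tags and so passed by rule. That holds for 6 of the 8 members in the knockout and 4 of the 6 in the wild type. Over all genes it holds for 103 of 127 such starts in the knockout and 102 of 114 in the wild type. Among members with both marks, only Ddx4 and Tex12 passed, Ddx4 in the wild type by 40 against 39 tags. The share of all starts with H3K9me3 moved with the H3K4me3 tags of the start. It was 1.6% in the knockout and 1.65% in the wild type at starts with no H3K4me3 peak, and 46.6% and 35.8% at starts with 400 tags or more. No member start reached 400 H3K4me3 tags. At starts without an H3K4me3 peak, 6 of 15 members had H3K9me3 in the knockout and 4 of 17 in the wild type. At starts with 1 to 49 H3K4me3 tags 0 of 5 members had it in the knockout, against 7.13% of all such starts, and 3 of 5 in the wild type, against 6.69%. At starts with 50 to 99 tags 5 of 6 did in the knockout, against 7.13%, and 2 of 3 in the wild type, against 4.04%. Ddx4 and Tex12 fall in the higher of these 2 classes in the knockout and in the lower one in the wild type. The part of the H3K4me3 level in the H3K9me3 calls was not tested.

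The genotypes were compared on peaks that overlapped each other by at least 50% of both widths and held at least 50 tags in 1 library. Tag density per kb in the knockout was divided by that in the wild type, put on a log2 scale and centred on the median of all pairs, and a difference of 2-fold was the size rule. For H3K4me3 there were 14 member pairs among 17114. Of all pairs 0.0409% were at least 2-fold denser in the knockout and 0.0117% at least 2-fold less dense, and of the 14 member pairs 0 passed in either direction. The nearest was Tex12 at 0.98 (95% counting interval 0.38 to 1.61). Ddx4 followed at 0.76 (0.14 to 1.4), then Dnmt3l at 0.62 (0.04 to 1.20) and Tdrd6 at 0.45 (0.08 to 0.83). The pairs of Tex12 and Dnmt3l, with 32 and 47 tags in the wild type, and that of Ddx4, with 39, met the 50-tag minimum in the knockout library only, where they are high, which favours a ratio above 0. By tags per peak, without division by width, Tex12 passed 2-fold at 1.92. The interval lay below 0 at the peak shared by Hormad1 and Golph3l, at -0.70 (-1.38 to -0.06). That pair, with 32 tags in the knockout, met the 50-tag minimum in the wild-type library only, which favours a ratio below 0. The pairs of Piwil4 and Spo11, with 48 and 46 tags in the knockout, also met it in the wild type only. The other 9 intervals held 0, with Meioc at 0.40 (-0.12 to 0.92), Dazl at 0.10 (-0.24 to 0.43) and Syce2 at 0.03 (-0.24 to 0.29) among them. The share of all pairs with an interval clear of 0 was not counted for either mark. The member intervals therefore have no background beside them. The member median was 0.18, with 10 of 14 above 0, where the centring puts the median of all pairs at 0. Scaled to filtered tags instead, the median of all pairs was -0.19 and that of the members -0.01, with 7 of 14 above 0. On that scale Tex12 stood at 0.79 and Ddx4 at 0.58, while Dazl turned to -0.09 and Syce2 to -0.16.

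For H3K9me3 there were 3 member pairs among 799. Of all pairs 0.0% were at least 2-fold denser in the knockout and 0.125% at least 2-fold less dense, and none of the 3 members passed. Tex12 stood at 0.58 (0.07 to 1.12) and Ddx4 at 0.52 (-0.04 to 1.09). Both met the 50-tag minimum in the knockout library only, with 48 and 40 tags in the wild type. By tags per peak Ddx4 passed 2-fold at 1.05 and Tex12 stood at 0.94. Dazl stood at -0.12 (-0.49 to 0.25). With the minimum lowered to 20 tags there were 12 member pairs in 11 genes with a median of -0.08, 4 of them above 0. The H3K9me3 peak of Tex12 spanned 847 bp in the knockout and 647 bp in the wild type, so the density ratio is smaller than the ratio of tags. The intervals cover the counting of tags and not the spread between mice, which 1 library per genotype does not show.

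**Figure D5:**
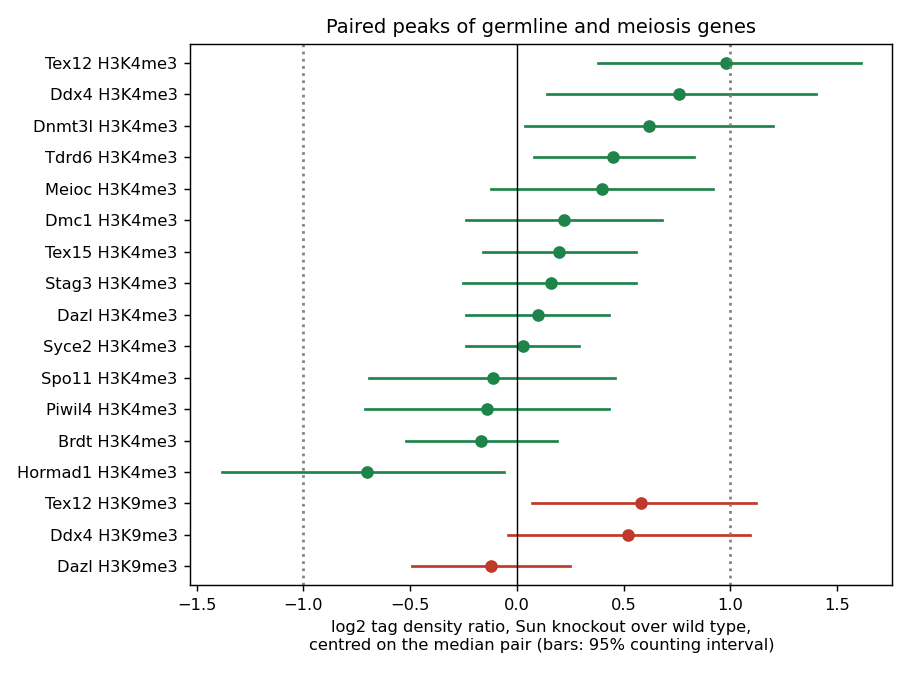
Centred log2 ratio of tag density, knockout over wild type (x axis), for 14 H3K4me3 and 3 H3K9me3 pairs of member peaks, with 95% counting intervals; dotted lines mark 2-fold. Tex12 and Ddx4 lie to the right for both marks, the Hormad1 peak shared with Golph3l lies to the left, and no point passes a dotted line.

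Genes of the same pathways outside the 34 were counted at listed starts in the same way. Of 36 other meiosis and germline genes, 7 (19.4%) had H3K9me3 at the start in the knockout, against 14.6% of all starts, 8 (22.2%) in the wild type, against 11.6%, and 3 (8.33%) in both genotypes, against 7.04%. The 3 were Boll, a relative of Dazl, with 77 tags in the knockout and 89 in the wild type, Msh4, a meiotic crossover protein, with 39 and 53, and Tex19.1 with 34 and 32. Of 13 other piRNA pathway genes, 5 (38.5%) had it in the knockout, 6 (46.2%) in the wild type and 4 (30.8%) in both. They were Tdrd5 with 37 tags in the knockout and 40 in the wild type, Ddx25 with 30 and 14, Gtsf1 with 24 and 18, and Henmt1, the methyltransferase of piRNA ends, with 23 and 20. Boll, Ddx25, Henmt1 and Tdrd5 also had H3K4me3 overlapping it in both genotypes. Of 24 genes of repressors tied to germline silencing, 23 (95.8%) carried H3K4me3 at the start in both genotypes, against 62.2% of all starts. H3K9me3 was at 6 of these starts (25%) in the knockout, against 14.6%, and at 7 (29.2%) in the wild type, against 11.6%. Sirt1, Tfdp1 and Max had overlapping peaks of both marks at the start in both genotypes. Their H3K9me3 peaks held 34, 48 and 22 tags in the knockout and 34, 25 and 14 in the wild type. In the wild type the most H3K9me3 tags at a repressor start were at Dnmt3a (56) and Ehmt2 (47). No H3K9me3 peak was called at either gene in the knockout. By gene ends H3K9me3 was at 12 of 27 repressor genes (44.4%) in the knockout, against 14.8%. In the wild type it was at 9 (33.3%), against 11.7%. A share above the background of all genes was thus not particular to the 34 genes. Every repressor start with H3K9me3 held more H3K4me3 tags than any member start in the same genotype. Of all starts with 400 H3K4me3 tags or more, 46.6% had H3K9me3 in the knockout and 35.8% in the wild type. In the next lower class of H3K4me3 tags these shares were 33.2% and 14.7%. The repressor shares were not set against starts with as many H3K4me3 tags, so an excess over such starts was not tested. The largest H3K4me3 peak at a start held the most tags at Dnmt3a, a de novo DNA methyltransferase, with 956 tags in the knockout and 1303 in the wild type, and at Ehmt2, a methyltransferase of H3 lysine 9, with 611 tags in the knockout and 803 in the wild type. E2f6, named above for its site and chosen after its values were seen, held 216 tags in the knockout and 343 in the wild type. Widely expressed counterparts of the members carried H3K4me3 at 9 of 10 starts in both genotypes, against the same 62.2%. Among them Brd2 had H3K9me3 overlapping it in both genotypes, with 24 tags in the knockout and 70 in the wild type.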

How the data were processed

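The 4 deposited peak lists, 1 per mark and genotype, were used, with groups taken from the labels. MACS 1.4.2 called them with no control library, per the file headers. Its p-value limit was 1e-05, its effective genome size 1.87e+09 and its band width 300, with 1 tag kept per position and a local background from up to 10000 bp, per the file headers. A broad domain therefore raises its own background. CASAVA 1.4, Bowtie 0.12.8 and DiffBind are also named, with build mm10, per the submitters' processing notes. Each deposited peak has a tag count, a score (log10 of its p-value times minus 10), a fold enrichment (a linear ratio to the caller's background) and other measures in bp (width and summit), per the file headers. The score and fold are the authors' own, and served to describe or filter peaks inside a list.

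Gene spans were those of RefSeq on GRCm38.p6, in a table without strand or exons, so no peak was assigned to exon or intron, and starts came from the RefSeq promoter table, which lists 17492 protein-coding genes. Peaks of both genotypes were paired at 50% reciprocal overlap with at least 50 tags in 1 library, with exact conditional binomial intervals on the log2 ratio of tags per kb. Shares have exact Clopper-Pearson intervals, and all intervals cover counting error only. Computation ran in Python 3.11.15 with scipy 1.17.1, numpy 2.4.6, matplotlib 3.10.9 and pandas 2.3.3, and was tested on simulated data. Members and lists were chosen with earlier results of these data known. By rule, every member with a peak is described and the others are named. From companion lists up to 4 genes with the most tags are given. Companion genes with overlapping peaks of both marks at a start in both genotypes are named too. Brme1 and Top6bl were not matched by symbol. Alternatives were other windows, a score of at least 100, gene ends only, 50% of the peak inside the window, other scalings, overlaps and tag minimums.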

Additional observations from a re-analysis of the deposited data

How the results depend on the processing

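No paired analysis was possible because each group is a lone library and the labels give no replicate numbers, and for the same reason no library could be left out. With a score of at least 100, H3K4me3 was found at 13 members in the knockout and 11 in the wild type, H3K9me3 at 6 and 9, and both marks at 4 and 3, where without that limit both marks were at 10 and 12. At gene ends only, the wild-type counts were 13 for H3K4me3 and 11 for H3K9me3. At listed starts, a score of at least 100, an alternative chosen after seeing the data, left 6 members with H3K4me3 in the wild type and 5 with H3K9me3 in the knockout. That limit lowers the background too, to 4.33% in the knockout and 3.09% in the wild type for H3K9me3 at starts. The H3K4me3 median over member pairs was -0.01 when scaled to filtered tags. The H3K9me3 median was 0.94 by tags per peak, -0.10 at 80% reciprocal overlap, -0.08 with at least 20 tags and -0.07 with at least 100 tags. It rests on 3 pairs, and on 1 pair at 80% overlap and at 100 tags. By tags per peak the Tex12 H3K4me3 ratio was 1.92 and that of Dmc1 0.83, and the H3K9me3 ratio of Ddx4 was 1.05, so that Tex12 and Ddx4 passed 2-fold there. With 1 window per gene in place of any listed window, a choice also made after seeing the data, both motifs were in 1 member without H3K9me3. Of the other planned values 31 counts and medians and 98 values of single genes moved by less than the limits set. The limit for counts was wide. Within it fell the knockout counts at gene ends only, 16 members against 20 for H3K4me3 and 13 against 18 for H3K9me3. No member pair was called, and 7 values of 6 single pairs had the other sign, all for H3K4me3: scaled to filtered tags Dazl (-0.09), Stag3 (-0.03) and Syce2 (-0.16), scaled to library totals Syce2 (-0.06), and by tags per peak Brdt (0.07), Piwil4 (0.09) and Tex15 (-0.02). H3K9me3 peaks held a median of 17 tags in the knockout and 16 in the wild type, and this depth limits what can be told of peaks called in 1 genotype alone.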
